A study of Mus musculus with 9 samples.

Results

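The S100 proteins, serum amyloid A 3 and lipocalin 2 were followed in RNA from macrophages of healing mouse skin. They were chosen by symbol and comprise 8 of the 18303 gene symbols of the count table, namely Saa3, Lcn2, S100a8, S100a9, S100a4, S100a6, S100a10 and S100a11. The study set late against early wound macrophages. The late group held 5 libraries from day 14 after injury and the early group 4 libraries from day 4, all from C57BL/6J wild-type mice that received no treatment. Cells positive for CD45, CD11b and F4/80 were sorted from dissociated wound tissue. The labels give no age or sex and do not say whether each library came from a separate animal, so the p-values below may reflect no more than technical spread.

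S100 proteins are small calcium-binding proteins that usually work as dimers, inside the cell by binding target proteins and outside it as signals of damage. S100a8 and S100a9 join to form calprotectin, which withholds zinc and manganese from microbes, is very abundant in neutrophils and is also made by monocytes and newly recruited macrophages. Saa3 is an acute-phase serum amyloid A protein that in mice is made mostly outside the liver, macrophages included. Lcn2 binds the siderophores with which bacteria collect iron and is a granule protein of neutrophils. In injured skin, calprotectin is also made by keratinocytes at the wound edge. S100a4, S100a6, S100a10 and S100a11 are found in many cell types and bind annexins, myosin or other partners.

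Of the 8 genes, 3 were lower at day 14, 1 was higher and 4 did not pass the test. Saa3 had the largest difference of the 8, at 76.8-fold lower. S100a4 and S100a6 were modestly lower and S100a10 was modestly higher. S100a8, S100a9 and Lcn2 varied between libraries of the same day by more than their means differed between the days, and S100a11 did not pass either. Among all 12237 genes tested, 15.2% were called lower and 15.9% higher (edgeR's quasi-likelihood test, Benjamini-Hochberg adjusted p under 0.05). The median log2 fold change was -0.40 over the 8 genes and 0.0084 over all genes tested. In bulk RNA, fewer cells of a type and less RNA per cell cannot be told apart.

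The promoter windows of the genes with inflammatory roles are shown because these genes were set apart by their level or their spread. Each window runs from 250 bases before to 50 bases after the RefSeq start on GRCm38.p6, 5′ to 3′ on the gene's strand, and 7 of the 8 genes matched the RefSeq table. Capitals mark matches, on either strand, to 4 short motifs. The C/EBP motif was searched as TTNNGCAA and the NF-kappaB motif as GGGNNNNNCC. The AP-1 motif was searched as TGANTCA. The TATA box was searched as TATAAA, and only in S100a4 and S100a11, which are not printed, do matches to the NF-kappaB motif overlap another match. C/EBP and NF-kappaB are transcription factors known for their part in acute-phase and myeloid gene control.
Saa3: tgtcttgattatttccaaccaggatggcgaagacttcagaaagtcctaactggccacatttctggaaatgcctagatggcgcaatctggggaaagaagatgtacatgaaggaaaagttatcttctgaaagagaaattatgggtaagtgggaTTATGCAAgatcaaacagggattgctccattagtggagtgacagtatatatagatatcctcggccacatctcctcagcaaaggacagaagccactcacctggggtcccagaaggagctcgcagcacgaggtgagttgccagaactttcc
Lcn2: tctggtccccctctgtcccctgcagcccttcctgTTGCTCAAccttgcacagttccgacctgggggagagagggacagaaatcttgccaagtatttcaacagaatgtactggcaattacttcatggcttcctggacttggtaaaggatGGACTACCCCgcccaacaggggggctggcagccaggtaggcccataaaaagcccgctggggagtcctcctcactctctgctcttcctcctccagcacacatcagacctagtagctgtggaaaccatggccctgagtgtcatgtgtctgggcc
S100a8: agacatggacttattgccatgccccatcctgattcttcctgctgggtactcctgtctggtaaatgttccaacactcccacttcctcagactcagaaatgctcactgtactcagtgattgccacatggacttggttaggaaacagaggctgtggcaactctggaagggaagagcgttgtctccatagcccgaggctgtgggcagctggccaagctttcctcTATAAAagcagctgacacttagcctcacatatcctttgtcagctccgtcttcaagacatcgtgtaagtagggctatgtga
S100a9: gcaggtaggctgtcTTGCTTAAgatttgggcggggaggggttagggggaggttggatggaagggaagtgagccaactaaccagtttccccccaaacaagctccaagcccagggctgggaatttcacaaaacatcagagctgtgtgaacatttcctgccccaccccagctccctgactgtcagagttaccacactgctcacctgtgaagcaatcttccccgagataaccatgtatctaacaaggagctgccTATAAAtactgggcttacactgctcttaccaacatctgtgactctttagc

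The windows lie at chr7:46715627-46715926 on the minus strand for Saa3, chr2:32387690-32387989 on the minus strand for Lcn2, chr3:90668821-90669120 on the plus strand for S100a8 and chr3:90695672-90695971 on the minus strand for S100a9. Saa3 has a C/EBP match that begins 99 bases before the start. That start lies inside the gene span of 46711998 to 46719615 given below, and no window at 46719615, the 5′ end of that span, was searched. Lcn2 has a C/EBP match 216 bases before its start and an NF-kappaB match 102 bases before it, both on the opposite strand. S100a9 has a C/EBP match on the opposite strand that begins 236 bases before the start. S100a8 has a TATA box 30 bases before the start, and the TATAAA of S100a9 begins at base 1 after the start that RefSeq gives. The AP-1 letters are in none of these 4 windows. In the windows of S100a4, S100a6 and S100a11, matches were to the NF-kappaB letters in each, to a TATA box in S100a4 and to AP-1 in S100a11. Of 32851 promoter windows of this length, 10.8% hold the C/EBP letters, 50.8% the NF-kappaB letters, 7.81% the AP-1 letters and 13.6% the TATA box. A match describes letters in this window and says nothing of binding in these cells.

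Libraries held 17982633 to 50445171 counts at day 14 and 26479017 to 57809918 counts at day 4. The counts of day 14 replicate 5 stop within the gene Aplp2 on chromosome 9. The 1604 genes beyond this break, on the rest of chromosome 9, on X and Y or without a known position, were left out of the test across 9 libraries. None of the 8 genes lies in that stretch. Genes of the lists below that do are given from the 8 other libraries, in which 28.6% of 13287 genes were called in either direction. Levels below are CPM, a count relative to the library's sum over the genes not beyond the break, scaled with TMM for library composition. Those sums were 17940573 to 46365859 counts at day 14 and 24523832 to 53514247 counts at day 4. For the genes tested in 8 libraries the total counts were used instead. The macrophage gene Lyz2 had 11468 ± 991 CPM at day 14 and 10742 ± 556 CPM at day 4, and the gene of F4/80, named Emr1 in the table, had 1458 ± 120 CPM at day 14 and 1123 ± 59.1 CPM at day 4.

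Saa3 (chromosome 7, 46711998 to 46719615, minus strand, GRCm38) had 1.99, 1.07, 2.50, 2.46 and 1.47 CPM in the 5 day 14 libraries, against 216, 138, 112 and 119 CPM in the 4 day 4 libraries. Every day 14 library held less Saa3 RNA than any day 4 library. The mean was 1.90 ± 0.62 CPM at day 14 (SD, n = 5) and 146 ± 47.9 CPM at day 4 (SD, n = 4). Its log2 fold change was -6.26 ± 0.27 (SE), with an adjusted p of 7.25e-08 by edgeR's quasi-likelihood test. Of the 12237 genes tested, only 2 had a lower log2 fold change. The day 14 level rests on 25 to 90 counts a library, against 3495 to 6618 counts at day 4. The gene's span overlaps Gm31882, a predicted gene not analysed here, and the counts do not show whether the strands were told apart. With each library left out in turn, the log2 fold change ran from -6.38 to -6.02 and stayed past the threshold.

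The gene nearest to Saa3 in its pattern over the 9 libraries was Slc9b2, which encodes a sodium/proton exchanger. Likeness was the root mean square difference in log2 CPM after each gene was centred on its own mean, among 8825 tested genes with a mean of at least 5 CPM, predicted genes (Gm and a number, or ending in Rik) left out. Slc9b2 was 0.51 from Saa3 and had 0.305 ± 0.22 CPM at day 14 against 19.8 ± 7.08 CPM at day 4. Next came Tnn, a tenascin of the extracellular matrix, at 1.09, with 1.98 ± 0.93 CPM at day 14 and 44.9 ± 13.8 CPM at day 4 (SD, n = 5 and 4 throughout). The other serum amyloid A genes in the table, Saa1 and Saa2, were too low to test, with means of 0.0195 and 0.00857 CPM at day 14 and 0.108 and 0.0442 CPM at day 4.

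S100a8 (chromosome 3, 90669071 to 90670034, plus strand) had 64.3, 27.0, 361, 55.8 and 146 CPM in the day 14 libraries, in the order of the replicates. In the day 4 libraries it had 402, 126, 140 and 150 CPM. The values overlapped: day 14 replicate 3 stood near the highest day 4 library, and day 14 replicates 1, 2 and 4 lay below every day 4 library. The mean was 131 ± 136 CPM at day 14 and 204 ± 132 CPM at day 4 (SD). The log2 fold change was -0.64 ± 0.75, with a 95% interval from -2.35 to 1.06 and an adjusted p of 0.546 by edgeR's quasi-likelihood test. The interval runs from 0.196 to 2.09 times the day 4 level.

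S100a9 (chromosome 3, 90692630 to 90695721, minus strand), the other chain of calprotectin, followed the same libraries. It had 126, 73.1, 882, 119 and 391 CPM in the day 14 libraries and 972, 283, 323 and 348 CPM in the day 4 libraries. Day 14 replicates 3 and 5 exceeded the 3 lower day 4 libraries, and the others fell below them. Its log2 fold change was -0.60 ± 0.78, with a 95% interval from -2.37 to 1.18 and an adjusted p of 0.592 by edgeR's quasi-likelihood test. Its deposited values were not whole in 7 of the 9 libraries, so its counts are estimates there, while those of the other 7 genes were whole.

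The 2 chains kept close to a fixed ratio within a library. S100a9 had 1.96, 2.71, 2.44, 2.13 and 2.67 counts for each S100a8 count in the day 14 libraries and 2.42, 2.25, 2.31 and 2.32 in the day 4 libraries. The day 14 ratios lay on both sides of those of day 4 and were more spread. The mean log2 ratio was 1.24 ± 0.20 at day 14 and 1.22 ± 0.04 at day 4, a difference of 0.02 with a two-sided p of 0.778 in an exact permutation test. The smallest p this design can give is 0.0159. Over the same libraries S100a8 itself spanned a 13.4-fold range at day 14 and a 3.19-fold range at day 4.

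Lcn2 (chromosome 2, 32384637 to 32387739, minus strand) was the lowest of the 3 variable genes, with 3.58, 3.17, 27.3, 3.86 and 12.8 CPM in the day 14 libraries and 27.9, 6.77, 9.82 and 12.3 CPM in the day 4 libraries. Day 14 replicate 3 and day 4 replicate 1 were nearly equal and stood above all others. The log2 fold change was -0.49 ± 0.74, with a 95% interval from -2.18 to 1.20 and an adjusted p of 0.652 by edgeR's quasi-likelihood test. Without day 4 replicate 1 its sign turned, to 0.05 (adjusted p = 0.969), and without day 14 replicate 3 it was -1.31 (adjusted p = 0.100). Leaving out day 14 replicate 3 also moved S100a8 to -1.48 (adjusted p = 0.0671) and S100a9 to -1.45 (adjusted p = 0.0902), while without day 4 replicate 1 they were at -0.09 and -0.0026. None of these passed the threshold.

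**Figure D1:**
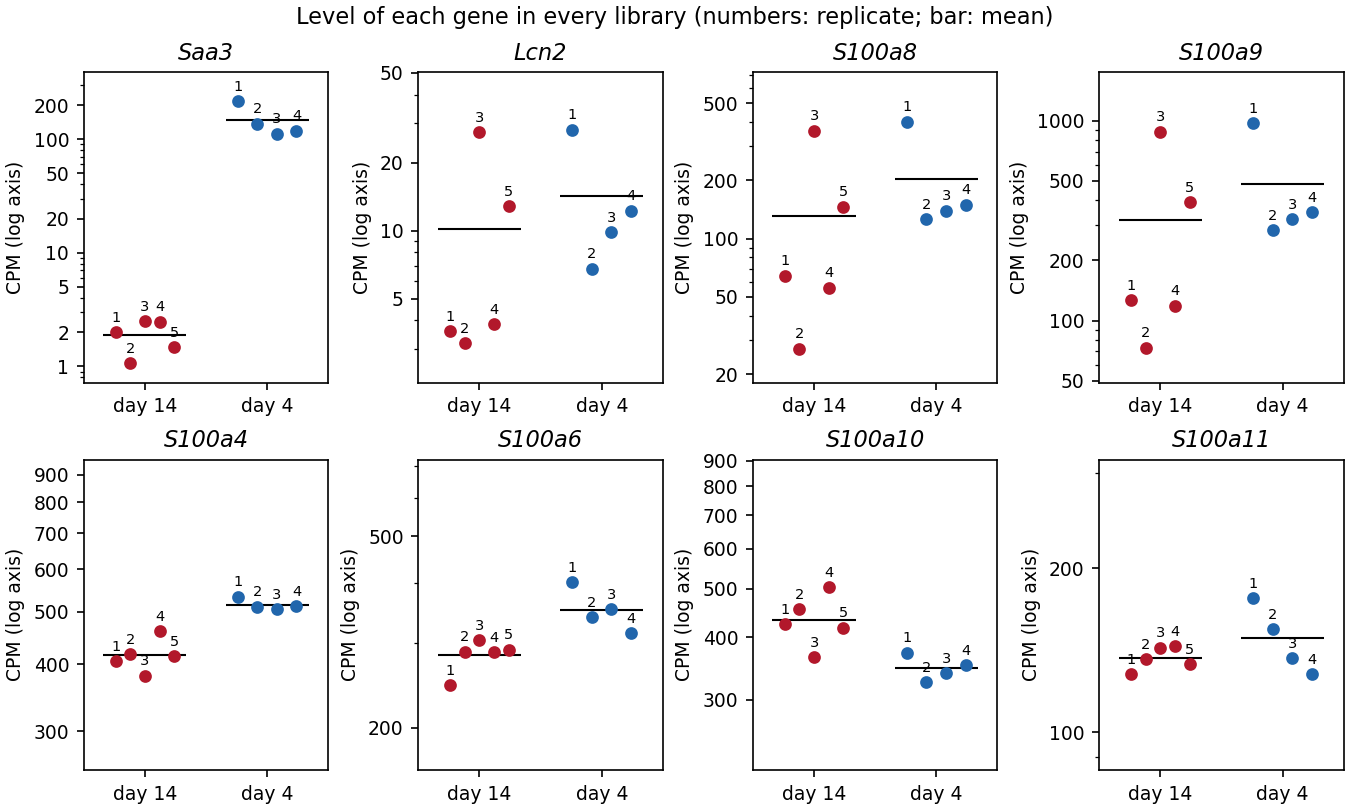
CPM of each of the 8 genes in every library, on log axes, with day 14 on the left and day 4 on the right of each panel; numbers give the replicate and bars the mean. Saa3 separates the days in every library. Lcn2, S100a8 and S100a9 are highest in day 14 replicate 3 and day 4 replicate 1, and so, by less, are Saa3 and S100a6.

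These 3 genes were among the most variable in the libraries of a day. The SD of log2 CPM within a day was 1.23 for S100a9, 1.20 for S100a8 and 1.18 for Lcn2. Of 9125 tested genes with a mean of at least 5 CPM, predicted genes included, 10 had a larger spread than S100a9, 12 than S100a8 and 14 than Lcn2. S100a4 was at the other end, with an SD of 0.078 that 8548 of those genes exceeded. S100a6, S100a10 and S100a11 had SDs of 0.13 to 0.14.

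In their pattern over the libraries S100a9 was the nearest gene to both S100a8 and Lcn2. Among the 8825 genes it lay at a distance of 0.14 from S100a8 and of 0.23 from Lcn2. From each other S100a8 and Lcn2 were 0.32 apart. Irg1, which makes the antimicrobial metabolite itaconate, was second nearest to S100a8 at 0.27. Irg1 had 172 ± 181 CPM at day 14 and 354 ± 253 CPM at day 4. Sh2d3c, a signalling adaptor, was second nearest to Lcn2, also at 0.27, with 27.8 ± 23.99 CPM at day 14 and 38.3 ± 14.9 CPM at day 4. Neither Irg1 nor Sh2d3c passed the test between the days.

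Neutrophil marker genes, taken as a sum, stood high in the same libraries. The marker list's summed level was 475, 400, 1973, 518 and 853 CPM in the day 14 libraries and 1997, 1078, 1113 and 1353 CPM in the day 4 libraries. Day 14 replicate 3 and day 4 replicate 1 were again the highest of their days. Hdc, which makes histamine and is among the 2 most abundant genes of the list, had 114, 95.2, 783, 114 and 264 CPM at day 14 and 486, 176, 215 and 222 CPM at day 4. Cxcr2, a chemokine receptor of neutrophils, had 28.7, 13.3, 159, 35.5 and 84.6 CPM at day 14 and 97.5, 46.1, 44.7 and 44.4 CPM at day 4. Both were highest in the libraries that were highest for calprotectin. Csf3r, the receptor for G-CSF, and Il1r2, a decoy receptor for IL-1, were highest there too. Cxcr2, Csf3r, Il1r2 and Mmp8 were picked out after their values were seen.

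Those 2 libraries were singled out because S100a8, S100a9 and Lcn2 peak in them, so the counts that follow are a description. Of the 8 genes, 5 were highest in both, namely Saa3, Lcn2, S100a8, S100a9 and S100a6. Above its day mean in log2 CPM, S100a8 stood 2.05 in day 14 replicate 3 and 1.16 in day 4 replicate 1. In the same order Saa3 stood 0.45 and 0.61 above its day means, and S100a6 0.11 and 0.19. Of the 14 neutrophil markers tested, 9 were highest in both libraries within their days. The same held for 7 of 14 monocyte markers, 3 of 10 macrophage and sort markers, 2 of 10 keratinocyte markers, 0 of 14 fibroblast markers and 7.54% of all genes tested. Of the neutrophil markers tested, Cd177, Padi4 and Prtn3 were instead highest at day 4 in replicate 4. Retnlg was highest at day 14 in replicate 1, and Mmp25 was highest at day 14 in replicate 5. The part that neutrophil or monocyte RNA has in the levels of S100a8, S100a9 and Lcn2 was not tested. Between the days, 2 of the 14 neutrophil markers were higher, 3 were lower and 9 did not pass. Mmp9, the other most abundant gene of the list and a gelatinase, was lower at 61.6 ± 24.5 CPM at day 14 against 510 ± 153 CPM at day 4 (log2 fold change -3.05). The granule genes of developing neutrophils were low but not uniform. Elane was at 0 in all 5 day 14 libraries and had 1 count in a single day 4 library, and Mpo and Ctsg were below 1 CPM in every library. Prtn3 was lower, with 0.0857 to 0.357 CPM at day 14 and 0.711 to 1.08 CPM at day 4 (log2 fold change -2.16). Ltf, Ngp and Camp lie beyond the break, and their values here are counts of the 8 libraries other than day 14 replicate 5. Ltf had 164, 51, 19 and 4 counts in day 14 replicates 1 to 4 and 99, 39, 57 and 124 counts in the day 4 libraries, and did not pass the test in 8 libraries. Ngp had 160, 31, 6 and 2 counts in the same day 14 libraries and 3, 2, 3 and 7 counts at day 4. Camp had 28, 5, 1 and 0 counts in those day 14 libraries and 2, 2, 0 and 0 counts at day 4. Ltf, Ngp and Camp were thus highest at day 14 in replicate 1 and not in replicate 3. No row of the count table bears the symbol Ly6g, so it could not be analysed.

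**Figure D2:**
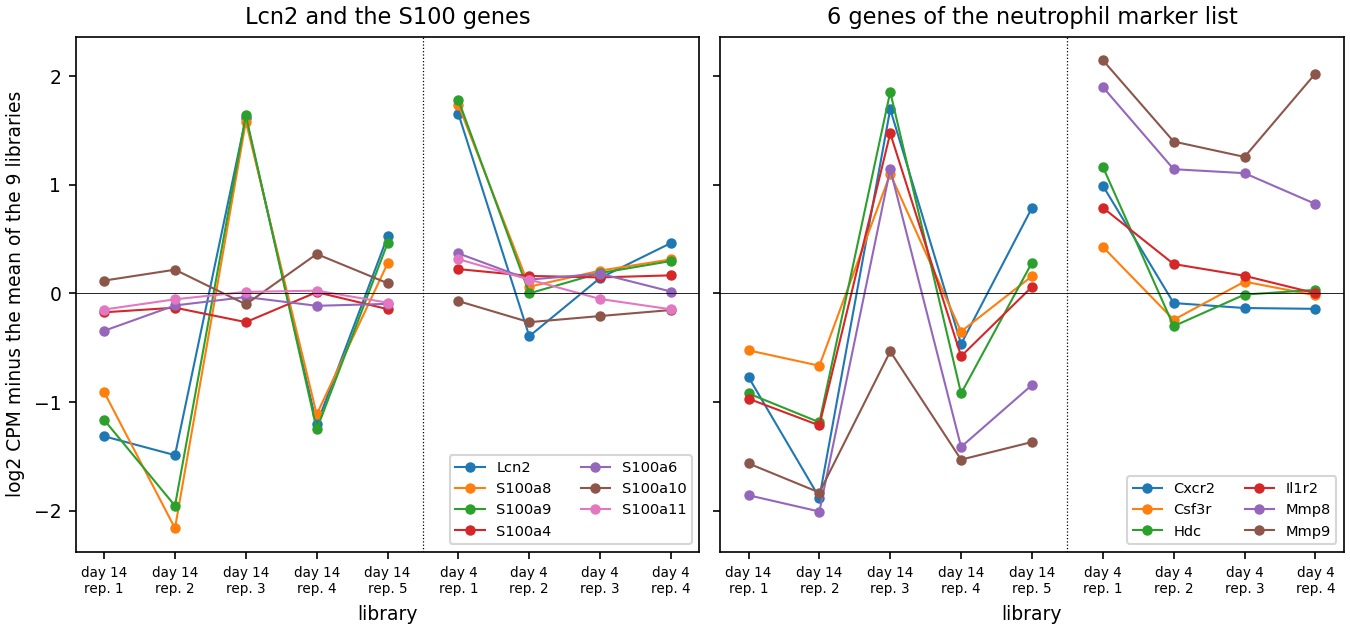
Log2 CPM of each gene minus its mean over the 9 libraries, with the day 14 libraries left of the day 4 libraries; lines join libraries of a day only to guide the eye. On the left Lcn2, S100a8 and S100a9 peak in day 14 replicate 3 and day 4 replicate 1. The other S100 genes stay near 0, S100a6 being highest in those libraries by less. On the right are 6 genes of the neutrophil marker list, taken from the 9 of 14 tested that peak in the same libraries. Mmp9 and Mmp8 are low at day 14 as well.

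S100a4 (chromosome 3, 90603770 to 90606045, plus strand), which binds the heavy chain of nonmuscle myosin and is known from fibroblasts as well as macrophages, had 405, 417, 381, 461 and 414 CPM at day 14 and 534, 511, 506 and 513 CPM at day 4. The groups did not overlap. The mean was 416 ± 29.1 CPM at day 14 and 516 ± 12.2 CPM at day 4 (SD), with a log2 fold change of -0.31 ± 0.08 and an adjusted p of 0.011 by edgeR's quasi-likelihood test. The direction held with any library left out (-0.35 to -0.29). With only the 6 libraries under 30000000 counts, the adjusted p was 0.0709.

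S100a6 (chromosome 3, 90612894 to 90614414, plus strand), or calcyclin, had 245, 288, 304, 287 and 291 CPM at day 14 and 401, 340, 353 and 315 CPM at day 4. These values did not overlap either, although the gap between the highest late and the lowest early library was small. The log2 fold change was -0.31 ± 0.09, with an adjusted p of 0.0247 by edgeR's quasi-likelihood test. This call did not survive leaving out day 4 replicate 1 (adjusted p = 0.0674), day 4 replicate 3 (0.055) or day 14 replicate 1 (0.0647), or keeping only the 6 shallower libraries (0.0611). Its log2 fold change stayed between -0.38 and -0.25 with any library left out.

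S100a10 (chromosome 3, 93555117 to 93564645, plus strand), the partner of annexin A2 that binds plasminogen at the cell surface, had 424, 455, 365, 503 and 418 CPM at day 14 and 372, 326, 339 and 352 CPM at day 4. Day 14 replicate 3 lay just under the highest day 4 library, and the other 4 day 14 libraries lay above all of day 4. The mean was 433 ± 50.8 CPM at day 14 and 347 ± 19.98 CPM at day 4 (SD), a log2 fold change of 0.32 ± 0.10 with an adjusted p of 0.0286 by edgeR's quasi-likelihood test. The call was lost without day 4 replicate 2, 3 or 4, without day 14 replicate 1, 2 or 4, with the 6 shallower libraries (adjusted p = 0.184) and with log10 library size as a covariate (adjusted p = 0.0791). In the 6 fits that leave out 1 of those libraries the adjusted p was 0.0521 to 0.0737, and over all 9 such fits the log2 fold change ran from 0.26 to 0.37.

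S100a11 (chromosome 3, 93520496 to 93526288, plus strand), a partner of annexin A1, had 128, 136, 143, 144 and 134 CPM at day 14 and 176, 155, 137 and 128 CPM at day 4. The values of the days overlapped. Its log2 fold change was -0.12 ± 0.10, with a 95% interval from -0.33 to 0.09 and an adjusted p of 0.366 by edgeR's quasi-likelihood test. The interval leaves room for changes as large as those of S100a4 and S100a6. The value was -0.03 without day 4 replicate 1, -0.20 without day 4 replicate 4, -0.22 with log10 library size as a covariate and -0.26 with the 6 shallower libraries, with adjusted p from 0.0992 to 0.803 in these fits.

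**Figure D3:**
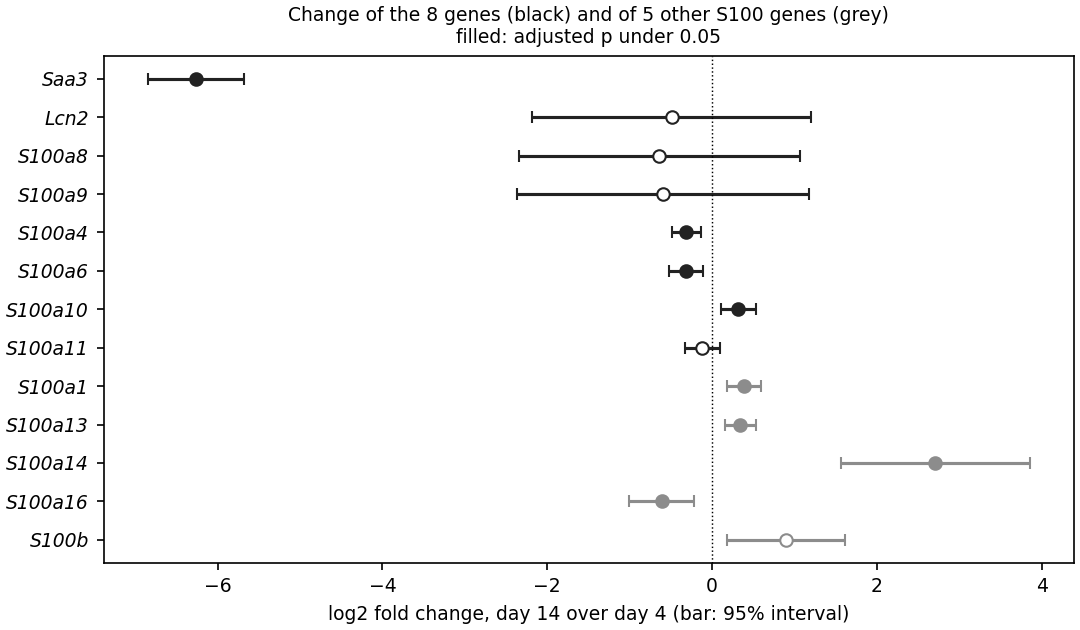
Log2 fold change, day 14 over day 4, with 95% intervals, for the 8 genes in black and for 5 other S100 genes in grey; filled points passed an adjusted p of 0.05. Saa3 lies at -6.26, the intervals of Lcn2, S100a8 and S100a9 span 0 widely, and the other 4 have narrow intervals close to 0.

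Fibroblast marker genes moved with the day as well: 9 of 14 tested were lower at day 14 and 0 higher. Their summed level ran from 5827 to 9531 CPM at day 14 and from 10745 to 21521 CPM at day 4, and their part in the differences of S100a4 and S100a6 was not tested. Col3a1, with 3259.5 ± 668 CPM at day 14 and 6389.7 ± 1949.5 CPM at day 4, and Col1a2 were the 2 most abundant, and Col1a2 had 1465 ± 374 CPM at day 14 and 3107 ± 1118 CPM at day 4. The monocyte markers Ly6c2 and Plac8 were among those lower. F13a1, the 1 called higher, had 3613 ± 385 CPM at day 14 and 2617 ± 228 CPM at day 4 (log2 fold change 0.47). Monocyte markers were lower for 9 of 14 and higher for 1 of 14, with summed levels of 14577 to 19925 CPM at day 14 and 23545 to 33008 CPM at day 4. Thbs1, a thrombospondin, and Fn1, fibronectin, were the most abundant of the list, and Thbs1 had 7954 ± 2075 CPM at day 14 and 16568 ± 3690.4 CPM at day 4 while Fn1 had 4935 ± 503 CPM at day 14 and 5424 ± 828 CPM at day 4 and did not pass. Thbs1, Fn1 and F13a1 together held most of the summed monocyte level on both days, so that sum mainly follows these genes. The part of monocyte RNA in the differences of Saa3 and calprotectin was not tested. Keratinocyte markers summed to only 19.9 to 33.2 CPM at day 14 and 10.9 to 15.98 CPM at day 4, 7 of 10 tested being higher at day 14. Cdh1, E-cadherin, had 4.72 ± 2.07 CPM at day 14 and 5.25 ± 1.06 CPM at day 4, and Sfn had 3.57 ± 0.52 CPM at day 14 and 4.01 ± 0.829 CPM at day 4. Neither Cdh1 nor Sfn passed the test. The 7 higher were Krt5, Krt14, Krt17, Dsp, Perp, Epcam and Trp63. Perp had the highest day 14 level of these, at 6.15 ± 1.24 CPM against 0.735 ± 0.18 CPM at day 4. Higher markers made up 6 of 10 for dendritic cells and 4 of 6 for eosinophils and mast cells, with 0 lower in either list, and 1 of 1 for T and B cells. Itgax, the gene of CD11c, had 198 ± 12.9 CPM at day 14 and 102 ± 10.5 CPM at day 4. Cd209a had 146 ± 21.3 CPM at day 14 and 55.3 ± 6.87 CPM at day 4. Prg2, an eosinophil granule protein, had 13.9 ± 2.43 CPM at day 14 and 4.73 ± 1.25 CPM at day 4, and Ccr3, in 8 libraries, had 32.5 ± 10.5 CPM at day 14 and 8.74 ± 1.42 CPM at day 4. Cd4, the 1 tested gene of the T and B cell list, had 58.3 ± 7.87 CPM at day 14 and 34.6 ± 1.64 CPM at day 4. The T cell genes Cd3e, Cd3d and Cd3g were too low to test and stayed below 1 CPM on average. So did Cd79a, a B cell gene. Of list genes beyond the break, Thy1 and Loxl1 of the fibroblast list and BC100530 of the neutrophil list were lower in 8 libraries. Higher there were Ccr2 of the monocyte list, Xcr1 of the dendritic cell list, and Ccr3 and Siglec5 of the eosinophil and mast cell list. Of the macrophage and sort markers, 2 of 10 were higher and 4 lower.

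Levels of different genes were compared per kilobase of GENCODE M21 exon, since gene lengths differ. The length counted every base that is exon in any annotated transcript, so more transcripts can lengthen a gene and lower its value. S100a6 had 1367 such bases from 4 transcripts, and S100a11 had 511 from 1. Before division by length, S100a6 stood above S100a11 at day 14, at 283 against 137 CPM. The orders below therefore depend on the annotation. At day 14 the order of the mean CPM per kilobase was S100a4 at 712, S100a9 at 609, S100a10 at 357, S100a11 at 268, S100a6 at 207, S100a8 at 189, Lcn2 at 3.87 and Saa3 at 0.728. Libraries of S100a9 spanned 140 to 1689 CPM per kilobase, so its place among its neighbours is not fixed. S100a8 spanned 38.9 to 521 CPM per kilobase and overlapped S100a6, S100a11 and S100a10, whose own ranges did not overlap each other. At day 4 the order was S100a9 at 923, S100a4 at 884, S100a8 at 295, S100a11 at 291, S100a10 at 286, S100a6 at 258, Saa3 at 56.2 and Lcn2 at 5.41. There the ranges of S100a8, S100a11, S100a10 and S100a6 overlapped, and so did those of S100a9 and S100a4. Saa3 and Lcn2 changed places between the days.

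The summed level of the 8 genes was 1399, 1401, 2465, 1576 and 1807 CPM in the day 14 libraries and 3102, 1885, 1919 and 1937 CPM in the day 4 libraries. Day 14 replicate 3 exceeded 3 of the 4 day 4 libraries, and the other late libraries lay below all of day 4. The difference in mean log2 level was -0.35, with a two-sided p of 0.175 in an exact permutation test. Without day 14 replicate 3 it was -0.49, with an exact permutation p of 0.0286, the smallest that 4 libraries against 4 can give. Leaving out the only late library not below all of day 4 fixes that p at its minimum, so it adds no evidence. With any other library left out, the p of the same test was 0.179 to 0.393. S100a8 and S100a9 together made up 7.14% to 50.4% of the sum at day 14 and 21.7% to 44.3% at day 4.

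All 6 S100 genes lie on chromosome 3, where S100a genes are clustered, 13 of them in the table. From S100a1 to the end of S100a9 they lie within 185 kilobases, and S100a11 and S100a10 lie 2.82 megabases further on. S100a4 and S100a6, with S100a5 between them, were both lower by 0.31 on the log2 scale, while S100a10, the neighbour of S100a11, was higher. S100a8 and S100a9, at the far end of the cluster, had the widest 95% intervals of the 10 S100a genes tested there.

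Of 5 other S100 genes tested, 3 were higher, 1 lower and 1 did not pass, namely S100b (log2 fold change 0.90, adjusted p = 0.0557). S100a1 had 36.4 ± 2.57 CPM at day 14 and 27.8 ± 3.201 CPM at day 4 (log2 fold change 0.39), and S100a13 had 43.6 ± 4.06 CPM at day 14 and 34.4 ± 0.94 CPM at day 4 (0.34). These 2 genes overlap each other, and both values are uncertain because the counts do not show whether the strands were told apart. S100a14, an epithelial S100 gene, had 0.811 ± 0.26 CPM at day 14 and 0.135 ± 0.084 CPM at day 4 (2.71), both very low, and the part that the keratinocyte RNA described above has in it was not tested. S100a16 was lower, with 4.93 ± 0.67 CPM at day 14 and 7.58 ± 2.02 CPM at day 4 (-0.61). S100a3, S100a5, S100a7a, S100g and S100z had too few counts to be tested.

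**Figure D4:**
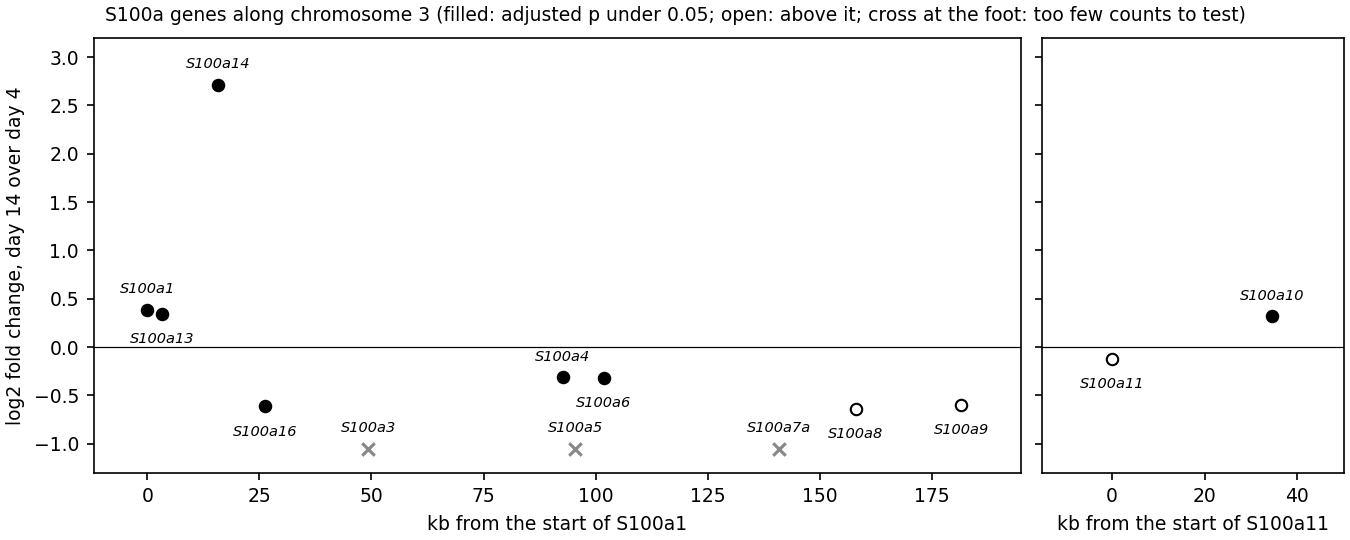
Log2 fold change, day 14 over day 4, of the 13 S100a genes of chromosome 3 by distance from the start of S100a1 (left) or of S100a11 (right); filled points passed an adjusted p of 0.05, open points did not, and crosses at the foot mark genes too low to test. S100a4 and S100a6 sit together at -0.31, and genes above and below 0 lie side by side.

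Of 12 binding partners tested, 2 were higher and 2 lower, with a median log2 fold change of 0.06. Ahnak, a very large scaffold protein that binds the complex of S100a10 and annexin A2, was the most abundant, with 8992 ± 1262 CPM at day 14 and 6696 ± 1088 CPM at day 4 (log2 fold change 0.43). Genes of plasminogen activation, which S100a10 serves at the cell surface, moved in both directions. Plau, urokinase, was higher at 303 ± 30.1 CPM at day 14 against 168 ± 33.2 CPM at day 4 (0.85). Its receptor Plaur was lower at 232 ± 56.4 CPM at day 14 against 371 ± 93.5 CPM at day 4 (-0.68), and the tissue activator Plat was lower too (-0.70). Anxa2 lies beyond the break and, in 8 libraries, had 863 ± 96.9 CPM at day 14 and 899 ± 91.5 CPM at day 4 (-0.06, adjusted p = 0.724).

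Receptors for these proteins were mixed, with 3 of 16 tested higher and 4 lower and a median log2 fold change of -0.24. Cd33, a sialic acid-binding inhibitory receptor reported to bind S100A9 in humans, had 177 ± 18.4 CPM at day 14 and 93.4 ± 9.80 CPM at day 4 (log2 fold change 0.92). Bsg, also named CD147 and reported to bind S100A9, had 149 ± 9.66 CPM at day 14 and 252 ± 32.8 CPM at day 4 (-0.76). Scarb2, a lysosomal scavenger receptor, was lower (-0.55), as was Cd68 (-0.47). The most abundant of the list was Cd14, the co-receptor of Tlr4, with 2426 ± 412 CPM at day 14 and 2695 ± 775 CPM at day 4, which did not pass the test (adjusted p = 0.534). Tlr4, a receptor for calprotectin, had 160 ± 35.8 CPM at day 14 and 199 ± 28.4 CPM at day 4 (-0.32, adjusted p = 0.12); it was named for that role after its value was seen.

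Acute-phase genes had more lower than higher members: 5 of 13 tested were lower and 2 higher, with a median log2 fold change of -0.92. Cfb, complement factor B, had 153 ± 5.15 CPM at day 14 and 334 ± 10.3 CPM at day 4 (log2 fold change -1.13). C3, the central complement protein, had 198 ± 37.8 CPM at day 14 and 666 ± 151 CPM at day 4 (-1.75). Steap4, a metalloreductase, had 30.2 ± 5.86 CPM at day 14 and 63.9 ± 12.8 CPM at day 4 (-1.08), and the protease inhibitor Serpina3n had 9.62 ± 5.05 CPM at day 14 and 44.6 ± 10.02 CPM at day 4 (-2.23). Each of these log2 fold changes was nearer to 0 than that of Saa3. Il1rn, the IL-1 receptor antagonist, is next to Cd14 the most abundant gene of the list and had 1105 ± 125 CPM at day 14 and 1128 ± 501 CPM at day 4 (-0.03, adjusted p = 0.935).

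Of 24 regulators of acute-phase genes tested, 6 were higher and 3 lower, with a median log2 fold change of -0.08. Nfkbiz, a nuclear cofactor of NF-kappaB known to be needed for Lcn2 induction, had 775 ± 134 CPM at day 14 and 414 ± 57.4 CPM at day 4 (log2 fold change 0.91). Nfkb1, a subunit of NF-kappaB, had 617 ± 84.4 CPM at day 14 and 375 ± 75.7 CPM at day 4 (0.72). Osm, a cytokine of the IL-6 family, was lower at 225 ± 55.8 CPM at day 14 against 426 ± 96.9 CPM at day 4 (-0.92). Cebpe, a C/EBP factor of granulocytes, was higher at 4.22 ± 0.46 CPM at day 14 against 1.92 ± 0.91 CPM at day 4 (1.17). Il1b was the most abundant, with 1573 ± 452 CPM at day 14 and 2188 ± 794 CPM at day 4 (-0.48, adjusted p = 0.148).

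The genes nearest in pattern to the 4 steadier S100 genes had small differences of the same kind, which the measure of likeness favours. They were Vwa8 and Pes1 for S100a4, at distances of 0.027 and 0.039, and Rnf34 and Mrps18a for S100a6, at 0.057 and 0.071. For S100a10 they were Nup54 and Ccnt2, at 0.057 and 0.062, and for S100a11 Chp1 and Pmpcb, at 0.048 and 0.059.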

How the data were processed

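Macrophages sorted from skin wounds were profiled by RNA-seq, with 5 libraries at day 14 and 4 at day 4. Per the labels' protocols, cells positive for CD45, CD11b and F4/80 were sorted with dead cells excluded, and libraries came from total RNA with the Illumina TruSeq kit as paired ends. The tools named, per the submitters' processing notes, are HISAT2 2.1.0, CASAVA 1.8, Partek 6.6, SAMtools 1.4 and DESeq2, with the build mm10. Their roles, the annotation and filters are not given in the sources used here. The authors deposited estimated counts, of which 14.5% to 18.8% per library were not whole; they were rounded. The authors also deposited normalized values, a signal equal to counts times 1 factor per library with few exceptions, used only in an alternative. Of 72 such values of the 8 genes, 1 was off that factor by over 2%: Saa3 in day 4 replicate 1 was listed at 0.247 times its scaled count.

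Libraries were scaled with TMM, low genes removed with filterByExpr, and days compared with edgeR 4.0.16 (glmQLFit, robust, and glmQLFTest, two-sided) in R 4.3.3. The Benjamini-Hochberg adjustment ran over all 12237 genes tested, and the procedure was tested on simulated data. Standard errors come from the F statistic. The threshold was an adjusted p of 0.05. Positions came from RefSeq and GENCODE M21 on GRCm38: 17103 symbols matched directly, 1098 by an older name and 102 not, and the 1604 genes left out include 103 without a position. Same-day libraries all differed by more than sampling noise (chi-square over its degrees of freedom 11.6 to 79.6). Depth limits counting precision for Saa3 at day 14, and counts are not independent molecules.

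Alternatives were upper-quartile, RLE and total-count scaling, DESeq2 1.42.0, limma-voom (limma 3.58.1), other low-count filters, log10 library size as a covariate, non-robust dispersion, all genes kept, the 6 libraries under 30000000 counts, leaving out each library, a prior count of 0.5 in place of 2 for likeness and, chosen after seeing the data, limma on the authors' normalized values. The genes and lists were chosen with earlier results of these data known. Named are all 8 genes, of each list up to 4 called genes of lowest p and the most abundant, of marker lists the 2 most abundant, and the 2 genes nearest each of them. Ly6c2, Plac8, Emr1, S100b, Elane, Mpo, Ctsg, Prtn3, Ltf, Ngp, Camp, Ly6g, list genes beyond the break, Saa1, Saa2, Il1rn, Anxa2 and the untested S100 genes are named outside that rule, after their values were seen. So are Cd177, Padi4, Retnlg, Mmp25, F13a1, Cd3e, Cd3d, Cd3g, Krt5, Krt14, Krt17, Dsp, Perp, Epcam and Trp63.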

Additional observations from a re-analysis of the deposited data

Results flagged for a closer look

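Of 28 sets of libraries of a day looked at (levels of the 8 genes, their ratio and sum, and marker sums), 6 had a library far from the others, and chance alone gives about 1 in 20. The sets share libraries and genes, so the 6 are not independent of each other and cannot be weighed against that rate. In day 4 replicate 1, S100a8 stood at 402 CPM, against 126 to 150 CPM in the other 3 day 4 libraries. S100a9 stood at 972 CPM in that library, against 283 to 348 CPM in the other 3. The summed level of the 8 genes was 3102 CPM there, against 1885 to 1937 CPM, and the monocyte marker sum was 33008 CPM, against 23545 to 24834 CPM. In that library Thbs1 alone held 21845 CPM of the monocyte sum. In day 14 replicate 3, the neutrophil marker sum was 1973 CPM, against 400 to 853 CPM in the other 4 day 14 libraries. S100a6 was low in day 14 replicate 1, at 245 CPM against 287 to 304 CPM in the other 4.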

How the results depend on the processing

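Saa3 kept its direction and its call under all 21 alternatives, at -6.58 to -5.79 on the log2 scale, the value nearest to 0 coming from the authors' normalized values. S100a4 kept its direction and lost its call with the 6 shallower libraries only (-0.34, adjusted p = 0.0709). With those 6 libraries S100a6 was at -0.35 (adjusted p = 0.0611) and S100a10 at 0.30 (adjusted p = 0.184), so that 0 of the 8 genes were called higher and 1 lower, and calls over all genes numbered 976 higher and 986 lower (1946 and 1854 with 9 libraries); fewer libraries entered that fit. With log10 library size as a covariate 0 of the 8 were called higher, and S100a10 was at 0.30 (adjusted p = 0.0791); the cause was not tested. Leaving out each library in turn gave -0.38 to -0.25 for S100a6, 0.26 to 0.37 for S100a10, -0.20 to -0.03 for S100a11, -1.31 to 0.052 for Lcn2, -1.48 to -0.09 for S100a8 and -1.45 to -0.0026 for S100a9. In the same fits 0 to 1 of the 8 genes were called higher and 2 to 3 lower. The log2 ratio of S100a9 to S100a8 ranged from -0.024 to 0.0915, with a sign change without day 14 replicate 2 (-0.0242) or replicate 5 (-0.0194). The difference in summed level ranged from -0.49 to -0.18. Upper-quartile scaling called 57.4% of called genes higher, against 51.2% with TMM. The nearest genes kept their ranks with a prior count of 0.5. No paired analysis was possible because the labels give the groups no shared replicate numbers. With 90 or fewer counts a library, the day 14 level of Saa3 carries more counting error than its day 4 level.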
